A study of Mus musculus with 3 samples.

Results

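Memory CD8 T cells carrying an active form of STAT5 gave 2 lists of STAT5A ChIP-seq peaks, and 316 autosomal peaks of the second list combined a high score with absence from the first. A peak was chosen when it lay on chromosomes 1 to 19, had a score of 20 or more in library 2 and overlapped no library 1 peak by 1 bp or more. The 316 chosen peaks were drawn from 18902 autosomal peaks of library 2, whose whole list held 19236 peaks, against 14627 in library 1. They are described mainly beside the 446 autosomal library 2 peaks with a score of 20 or more that did overlap a library 1 peak, called shared peaks here. Score and overlap chose the peaks, so both are given as descriptions without a test. Positions along the chromosomes were not used in the choice, but absence from library 1 favours places where that list held few peaks.

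The cells were C57BL/6 mouse T cells whose receptor, TCRP1A, is directed at an antigen of tumour cells, P1A. Per the labels, they were activated with that antigen, received STAT5CA, an active form of STAT5, after 24 h and were cultured for 48 h more. They were then transferred into congenic hosts, and memory cells were purified 70 days later from spleen and lymph nodes, although the tissue label reads blood. Both ChIP libraries used an antibody against STAT5A, and both came from cells with STAT5CA, so no comparison with cells lacking it was possible. The remaining library was input chromatin without antibody, from cells described in the same way, and no peak list of it was analysed here. The labels call library 2 a replicate and do not say whether it came from other animals, so differences between the lists may be technical. The identity of the cells could not be checked against marker genes, because the lists pair no peak with a gene.

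STAT5A is a transcription factor that enters the nucleus after cytokine receptors such as that of IL-2 are engaged, binds DNA as a dimer and regulates genes of T cell growth and survival. A ChIP-seq peak marks a place where more reads mapped than in the surroundings. High read counts also arise where the cell holds many copies of a sequence and the reference assembly holds few, as at satellite repeats next to centromeres and at ribosomal RNA genes. Mouse chromosomes carry the centromere at one end, which is where assembly positions begin, after a placeholder gap. Lists of such problem regions are therefore often removed from peak lists before analysis. The list of library 1 was submitted under a name with an added suffix of unknown meaning, absent from the name of the library 2 list. A removal of regions from library 1 alone was not tested.

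Scores separated the chosen peaks from the shared peaks only in the upper range. The score is the authors' value for each peak, a whole number of unstated scale. Scores ran from 19 to 179 with a median of 27 in library 1, and from 8 to 267 with a median of 11 in library 2. A score of 20 was thus near the lowest of library 1 but above the median of library 2. The chosen peaks ran from 20 to 267 with a median of 23, and the shared peaks from 20 to 56 with a median of 21. Among all 762 autosomal library 2 peaks with a score of 20 or more, 41.5% were absent from library 1 (95% Wilson interval 38.0 to 45.0%), against 59.8% of the 18140 peaks with lower scores and 59.0% of autosomal library 2 peaks of any score. The choice used this contrast, so nothing is read from these shares. At scores of 20 to 27 the absent fraction was 36.3%, with 239 chosen and 419 shared peaks. At 28 to 35 it was 42.1%, with 16 chosen and 22 shared peaks. At 36 to 99 it was 88.6%, with 39 chosen and 5 shared peaks. All 22 peaks with a score of 100 or more were absent from library 1, as were all 40 with a score of 57 or more. The threshold itself cut through a continuous range, since 138 of 377 peaks scored 19 and 91 of 252 peaks scored 20 were absent from library 1, which is 36.6% and 36.1%. The chosen peaks thus consisted of 255 peaks with scores of 20 to 35, a range they shared with 441 shared peaks, and 61 peaks with scores of 36 or more, where 5 shared peaks lay.

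**Figure D1:**
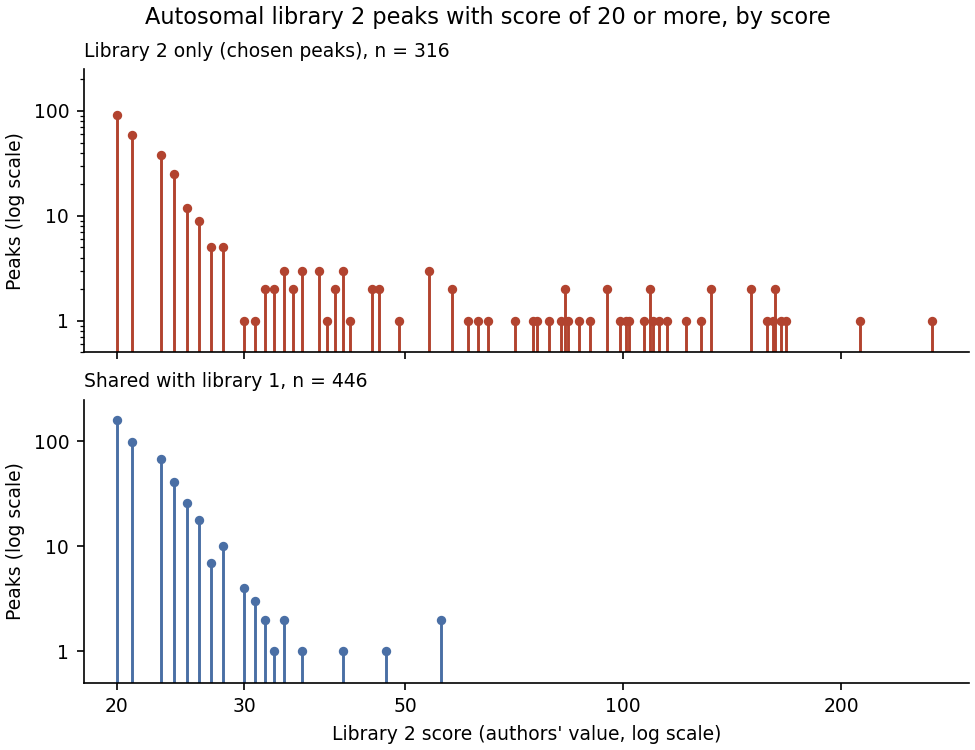
Number of autosomal library 2 peaks (vertical axis, log scale) at each score of 20 or more (horizontal axis, log scale), for the 316 peaks absent from library 1 (upper panel) and the 446 shared peaks (lower panel). Both sets fall steeply from 20 to about 28, and only the peaks absent from library 1 continue above 56, to 267.

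The highest scores lay at few places. The highest of all, 267, was on chromosome 11 at 3093051 to 3093239, 92.7 kb after the first peak of that chromosome. The next, 212, was on chromosome 17 at 39980344 to 39980532, and no other peak of either list lay within 500 kb of it. Chromosome 9 held a peak of score 168 at 35112809 to 35112997 and peaks of 162, 161 and 150 at its start, beginning at 3026577, 3000080 and 3035756. On chromosome 2, peaks of 165 and 162 lay side by side at 98502900 to 98503088 and 98503887 to 98504075. The remaining peaks of the 10 highest were one of 158 on chromosome 4 at 70039135 to 70039323 and one of 150 on chromosome 12 at 75905181 to 75905369. None of these 10 lay within 20 kb of a library 1 peak, and the smallest distance was 28.1 kb, for the peak of score 168. Such distances were common, since the lower quartile was 21.1 kb for all 316 chosen peaks. It was 18.5 kb for library 2 peaks absent from library 1 with scores below 20. Those of the 10 on chromosome 2 and at the start of chromosome 9 also lay in groups and were not independent. The lists do not name repeats or genes, and no mm9 annotation was used here. As general knowledge rather than a result, the assembly's chromosome 17 carries sequence related to ribosomal RNA, and the RefSeq table of the later build GRCm38.p6 lists the pseudogene Rn18s-rs5, among others, on that chromosome. Whether the peak of score 212 overlaps such sequence, and whether the chromosome 2 and chromosome 9 groups overlap satellite repeats, was not tested. For the same reason no sequence of these peaks is shown.

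Chosen peaks were found at the starts of chromosomes. Of the 316 peaks, 26 began no more than 200 kb after the first peak of either list on their autosome, equal to 8.23% (5.68 to 11.8%). Of the 446 shared peaks, 0 lay there, which allows a share of up to 0.673%. The difference was 8.23 percentage points (95% Newcombe interval 5.54 to 11.8, counting error only). A shared peak needs a library 1 peak, and these windows held 16 of the 14087 autosomal library 1 peaks. The count of 0 was thus largely set by the overlap rule, and the difference is a description. Library 2 peaks absent from library 1 with scores below 20 had 33 of 10841 there, 0.304%. The peaks of 1 region are not independent, and with each run of neighbouring chosen peaks counted once the share was 3.44% (10 of 291 places). Without chromosome 9 it was 5.15% (15 of 291 peaks).

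The 26 peaks fell on 7 autosomes. Chromosome 9 held 11 of them, between 3000080 and 3038445, with scores of 65 to 162, and the first library 1 peak of that chromosome began at 4098238. Chromosome 11 held 6, between 3000381 and 3197824, with scores of 20 to 267. Chromosome 4 held 3 between 3016806 and 3018191, with scores of 54 to 109, and its first library 1 peak began at 4076473. Chromosome 18 held 3 between 3005753 and 3010353, with scores of 24 to 79. Chromosomes 12, 13 and 17 held 1 each, with scores of 83, 45 and 63. The windows of these 7 autosomes together contained 37 library 2 peaks and 1 library 1 peak, which began at 3137667 on chromosome 11. The windows of the other 12 autosomes, of which that on chromosome 14 began only at 8668781, contained 31 library 2 peaks, 15 library 1 peaks and no chosen peak. The choice required absence from library 1, so these numbers are a description. Over all 19 windows library 1 had 16 of its 14087 autosomal peaks, 0.114%, so few peaks there could have been shared. On 4 of these autosomes, chromosomes 9, 11, 12 and 18, the first peak that set the window was itself a chosen peak. Those windows held 11, 6, 1 and 3 of the 26 peaks, so their limits were not independent of the choice. Only on chromosomes 4, 13 and 17 was the window set by a peak that was not chosen.

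**Figure D2:**
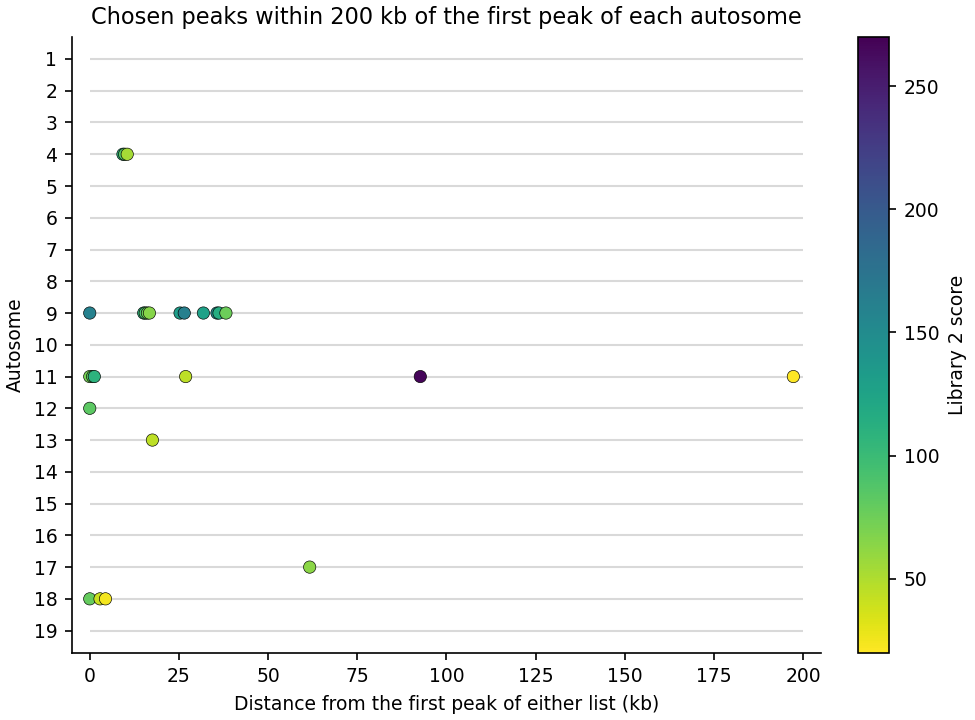
Distance in kb from the first peak of either list (horizontal axis) of the chosen library 2 peaks within 200 kb of it, for each autosome (vertical axis), coloured by library 2 score. The 26 peaks lie on chromosomes 4, 9, 11, 12, 13, 17 and 18, with 11 on chromosome 9.

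Chosen peaks also lay close to one another. A run was taken as 2 or more chosen peaks with neighbouring centres within 20 kb. There were 11 runs with 36 of the 316 peaks, 11.4% (8.34 to 15.4%). The 446 shared peaks, although more numerous, formed 1 run of 2 peaks, 0.448% (0.123 to 1.62%), a difference of 10.9 percentage points (7.68 to 14.9). This interval covers counting error only, since peaks of a run are not independent, and 1 run on chromosome 9 gave 11 of the 36 peaks. Of the 36, 20 were peaks already counted near chromosome starts, and 16 lay elsewhere. Library 1 held few peaks near starts, so shared peaks could hardly form runs there. The difference in runs is thus partly set by the overlap rule and is a description. The share of peaks in runs of their own set depends on how many peaks the set holds. The 10841 library 2 peaks absent from library 1 with scores below 20 had 3091 in runs of their own, 28.5% (27.7 to 29.4%). Another library 2 peak of any score lay within 20 kb of 40.2% of chosen peaks and 36.3% of shared peaks, a difference of 3.87 points whose interval ran from -3.09 to 10.9. By score, such a neighbour was found for 60.7% of chosen peaks of 36 or more (48.1 to 71.9%) and 35.3% of those of 20 to 35 (29.7 to 41.3%), and for 1 of 5 and 36.5% of shared peaks. 

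The largest run was that at the start of chromosome 9, where 11 chosen peaks spanned 38.4 kb with no other library 2 peak among them. In order of position their scores were 161, 107, 90, 75, 65, 132, 162, 128, 150, 115 and 76, with gaps between centres of 426 to 15126 bp. The next library 2 peak lay 220 kb away, and the nearest library 1 peak 1060 kb away. A further 5 runs had 3 peaks. One was inside chromosome 2 at 98502900 to 98507158, with scores of 165, 162 and 110, and lay 300 kb from the nearest library 1 peak. The run at the start of chromosome 4 spanned 1.39 kb with scores of 109, 87 and 54. That at the start of chromosome 11 spanned 1.47 kb with scores of 71, 83 and 109. At the start of chromosome 18 the scores were 79, 41 and 24 over 4.60 kb. These 4 runs and that on chromosome 9 consisted of chosen peaks alone, and the one closest to a library 1 peak, on chromosome 11, lay 136 kb from it.

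The remaining 6 runs lay away from chromosome starts. Near the end of chromosome 2, at 181652327 to 181665574, chosen peaks of 34, 24 and 38 lay with 2 other library 2 peaks, 1.08 kb from a library 1 peak and 82.5 kb before the last peak of the chromosome. On chromosome 17, peaks of 36 and 38 lay 10289 bp apart between 30766505 and 30776982, with a library 1 peak 3.58 kb away. A shared peak of score 32 lay close by, beginning at 30815598, and another chosen peak, of score 34, began at 30970874. That stretch was rich in peaks, with 17 library 1 peaks and 26 other library 2 peaks within 500 kb of either run member. Chromosome 15 held peaks of 42 and 102 centred 1009 bp apart between 74916147 and 74917344, 159 kb from library 1. The remaining runs of 2 were on chromosomes 1, 3 and 10, with scores of 20 and 32, 20 and 40, and 20 and 26. In all, 9 of the 11 runs lay more than 80 kb from the nearest library 1 peak, a distance that was not a planned setting. All 316 chosen peaks had a median distance of 58.8 kb, with quartiles of 21.1 to 138 kb. Of the 11 runs, 4 lay at chromosome starts, where library 1 held few peaks, so the count is a description.

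**Figure D3:**
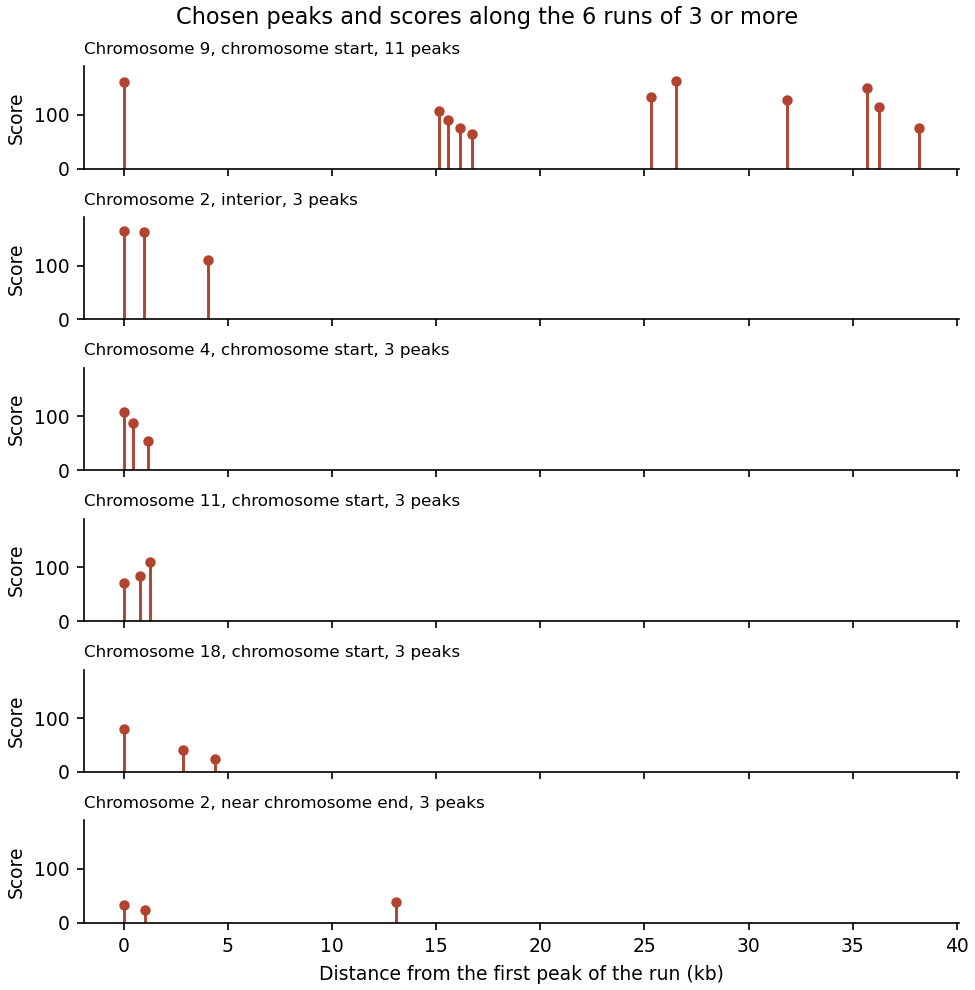
Scores (vertical axis) of the chosen peaks against distance in kb from the first peak of the run (horizontal axis), for the 6 runs of 3 or more. The chromosome 9 run holds 11 peaks over 38.4 kb, and the run near the end of chromosome 2 has the lowest scores, 24 to 38.

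Positions near chromosome starts and in runs were most frequent among the highest scores. Among the 61 chosen peaks with scores of 36 or more, 24 were within 200 kb of the first peak, 39.3% (28.1 to 51.9%), and 28 in runs, 45.9% (34.0 to 58.3%). Of the 22 with scores of 100 or more, 10 lay near a start and 13 in runs. The run at the start of chromosome 9 alone gave 11 of the 24 peaks and 11 of the 28. It also gave most of the 10 and most of the 13. Peaks of a run are not independent, so the intervals cover counting error only. With each run counted once, the share near a start was 3.44% for all chosen peaks, and it was not computed for these score classes. Among the 255 chosen peaks with scores of 20 to 35, 2 lay near a start, 0.784% (0.215 to 2.81%), and 8 in runs, 3.14% (1.60 to 6.07%). The 441 shared peaks in that score range had 0 near a start and 2 in runs, 0.454%. At 20 to 35 the difference near starts was 0.784 points with an interval of -0.250 to 2.81, and in runs it was 2.68 points (0.741 to 5.63). Some of these 8 peaks had run partners of higher score, so the run shares are not at equal score. When runs were built from peaks of 20 to 27 only, they held 2 of 239 chosen peaks, 0.837%, against 0.477% of shared peaks. Above 35 only 5 shared peaks were available. None of them lay near a start or in a run, which allows a share of up to 60.0%, so the difference at equal score cannot be fixed there. The score range and the absence from library 1 cannot be told apart as what went with position.

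**Figure D4:**
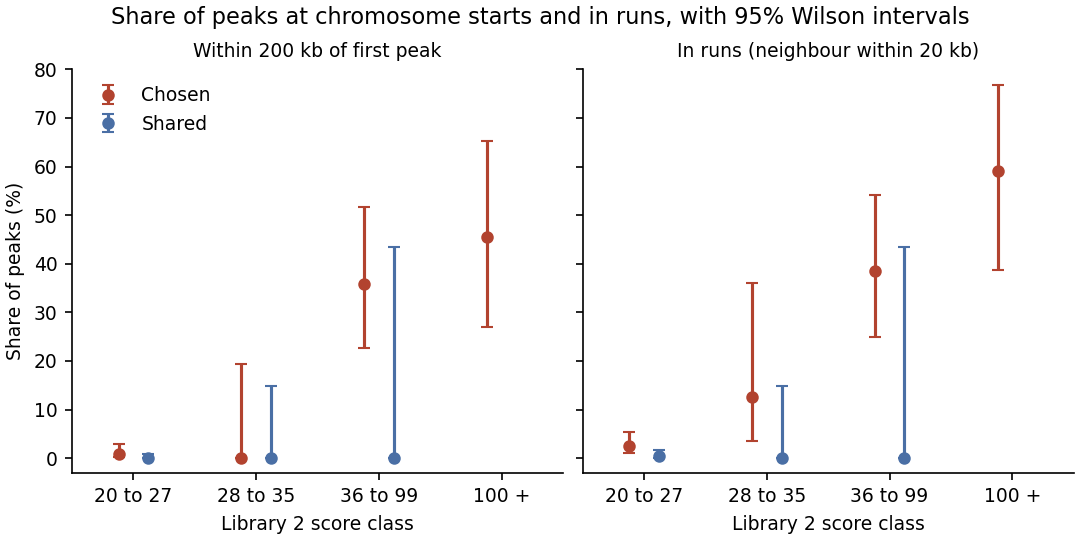
Share of peaks in percent (vertical axis) within 200 kb of the first peak of the autosome (left) and in runs of the same set (right), by library 2 score class, for chosen peaks (red) and shared peaks (blue), with 95% Wilson intervals. Both shares of chosen peaks are higher from a score of 36 on, while no shared peak of that range, 5 in all, is counted in either panel. The run at the start of chromosome 9 gives 11 of the chosen peaks of that range in both panels, and peaks of a run are not independent.

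High-scored peaks were also found alone. Of the 61 chosen peaks with scores of 36 or more, 28 lay neither near a start nor in a run, on 15 autosomes, with scores of 36 to 212 and a median of 59.5. For 26 of these 28, the nearest peak of either list was more than 10 kb away. They were picked for having no other chosen peak within 20 kb, so this spacing was partly built in. Among all chosen peaks of 20 to 35, 13.7% had a library 1 peak within 10 kb. Another library 2 peak lay within 20 kb of 35.3% of them, so wide spacing was common there too. Scores of 100 or more were found at 8 of the 28. Apart from those named above, these were 132 on chromosome 12 at 68160335, 122 on chromosome 3 at 56379476, 112 on chromosome 1 at 197067827 and 101 on chromosome 18 at 56099157. The chromosome 1 peak lay 121 kb before the last peak of that chromosome. Chosen peaks at the ends of chromosomes numbered 6 of 316 within 200 kb of the last peak, 1.90% (0.873 to 4.08%), against 1 of 446 shared peaks, a difference of 1.67 points (0.218 to 3.86). Library 2 peaks absent from library 1 with scores below 20 had 16 of 10841 there, 0.148% (0.0909 to 0.240%). Of the 6 chosen peaks, 3 belonged to the run on chromosome 2, and 2 were themselves the last peak that set the window. Peaks were sparse around the lone high-scored peaks in both lists. Within 500 kb they had a median of 5 library 1 peaks and 5 other library 2 peaks, against 7 and 9 for chosen peaks with scores of 20 to 35. Shared peaks of 20 to 35 had 7 and 10, not counting the library 1 peak they overlapped. The 5 shared peaks of 36 or more had 4 and 5, counted in the same way, so the low numbers were not particular to chosen peaks.

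The median distance to the nearest library 1 peak was larger in the chosen peaks with scores of 36 or more than in those below. It was 42.6 kb at scores of 20 to 27, 54.1 kb at 28 to 35, 112 kb at 36 to 99 and 301 kb at 100 or more, with quartiles of 18.7 to 119 kb in the lowest class and 108 to 1065 kb in the highest. Library 2 peaks absent from library 1 with scores below 20 had a median of 44.2 kb. Members of a few runs weigh on the upper classes, among them the starts of chromosomes 4 and 9 with distances above 1 Mb. With each run counted once, the medians at 36 to 99 and at 100 or more were 107 and 120 kb, over 32 and 14 places, and the median at 20 to 27 was 42.6 kb. The peaks of score 267 and 168 lay 44.4 and 28.1 kb from library 1. The 28 lone peaks of 36 or more away from starts had a median of 89.5 kb. Distances above 50 kb were found for 47 of 61 peaks with scores of 36 or more, 77.0%, for 48.2% of those with 20 to 35 and for 46.0% of those below 20. Library 1 peaks within 10 kb were about as frequent for chosen peaks, with 40 of 316, 12.7% (9.44 to 16.8%), as for the peaks below 20, with 14.6% (13.9 to 15.3%). None of the 22 peaks with 100 or more had one, which allows a share of up to 13.6%.

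**Figure D5:**
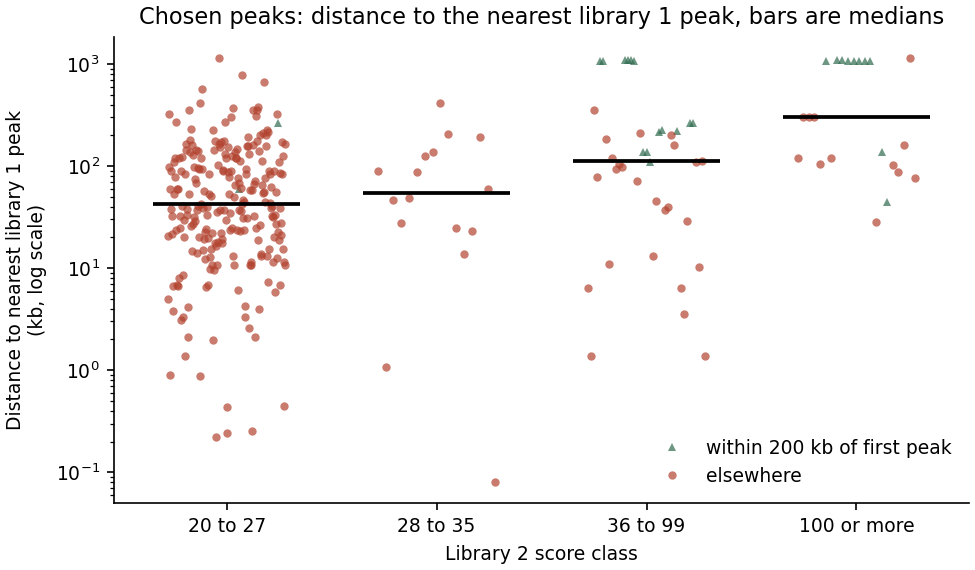
Distance in kb to the nearest library 1 peak (vertical axis, log scale) of each of the 316 chosen peaks by library 2 score class, with bars at the medians of 42.6, 54.1, 112 and 301 kb. Triangles mark peaks within 200 kb of the first peak of the autosome, many of which lie above 1 Mb in the upper classes.

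A few chosen peaks missed a library 1 peak narrowly. There were 6 with a library 1 peak within 500 bp, 1.90% (0.873 to 4.08%), against 0.849% (0.693 to 1.04%) of the peaks below 20. They lay on chromosomes 6, 8, 13, 18 and 19, with scores of 20 to 33 and distances of 81 to 442 bp. None of the 61 peaks with scores of 36 or more was among them, which allows a share of up to 4.92%.

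The 5 shared peaks with scores of 36 or more were all away from starts and runs. Their library 2 scores were 41 and 47 on chromosome 1, at 90106867 and 97348448, 56 on chromosome 6 at 131327498, and 56 and 36 on chromosome 7 at 73383154 and 150554251. Their library 1 scores were 35, 55, 47, 47 and 31 in that order. The first lay 6.39 kb from a chosen peak of score 46 at 90113446. The other 4 lay 3741 kb or more from any chosen peak.

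Chosen peaks occurred on every autosome, from 10 on chromosomes 7, 16 and 19 to 27 on chromosome 2. Per Mb between the first and the last peak, the number ran from 0.0672 on chromosome 7 to 0.207 on chromosome 9. With each run counted once, chromosome 9 fell to 0.124 and chromosome 17 was highest at 0.185. The fraction of peaks with scores of 20 or more that were absent from library 1 ran from 30.3% on chromosome 7 to 52.0% on chromosome 8, where 25 peaks gave 13 chosen ones. Peaks with scores of 36 or more were spread unevenly. Chromosome 9 held 13 of the 61 and chromosome 11 held 7, while chromosomes 7, 14 and 16 held none.

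The same counts were made for the highest library 1 peaks absent from library 2. There were 63 autosomal peaks found only in library 1 with a library 1 score of 63 or more. None lay in a run of such peaks, which allows a share of up to 4.76%, and none lay within 20 kb of a chosen peak. None lay within 200 kb of the first peak either, but with 0.114% of library 1 peaks in those windows a count of 0 says little. Of the 71 shared peaks with a library 1 score of 63 or more, 0 lay near a start and 0 in runs of their own. Chosen peaks lay within 20 kb of 2 of these 71. The scores of the lists have no common scale, so this threshold does not mark equal strength.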

How the data were processed

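STAT5A ChIP-seq was measured in 2 libraries, with 1 peak list each, and the third library, the input, was not analysed here. The authors deposited chromosome, start, end and a score per peak. The submitters' processing notes name HOMER and mm9. What HOMER did, its version, and the cutoff, control and filters behind the lists are not stated in any source used here, and the sequencing depth is unknown. The deposited lists are per library. Comparisons used pandas 2.3.3, numpy 2.4.6 and statsmodels 0.14.6 in Python 3.11.15, and figures were drawn with matplotlib 3.10.9. Overlap meant at least 1 bp. Chromosome starts were windows of 200 kb from the first peak of either list, and runs joined centres within 20 kb. Distances to library 1 were measured between peak edges, and those to other library 2 peaks between centres. Positions count from 1. Shares carry 95% Wilson intervals and differences Newcombe intervals, which cover counting error only, since peaks are not replicates and neighbouring peaks are not independent. A count of 0 was given the limit that 3 counts allow. No p-value was computed. Overlap and run functions were tested on simulated data.

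The peaks, the score threshold, the comparisons and the rule for named regions were chosen with earlier results of these data known. That rule took the 10 highest-scored chosen peaks, those of 100 or more, the 3 largest runs, runs at chromosome starts and shared peaks of 36 or more. Other runs, near misses and the comparison with library 1 peaks of 63 or more were chosen after their values were seen, as were the split at 36, the numbers of peaks within 500 kb and the distances with each run counted once. The planned analyses of sequence, motifs, STAT5 target genes and nearest genes were left out, since neither genome nor annotation of mm9 was used.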

Additional observations from a re-analysis of the deposited data

How the results depend on the processing

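Of 26 alternatives, 14 left the value within 1.5 times for a count or within the 95% interval for a share. The number of chosen peaks, 316, ranged from 310 to 324 with other overlap rules. It was 667 with scores of 18 or more, 128 with 24 or more and 77 with 28 or more, by construction. The share near chromosome starts, 8.23%, was 19.5% with scores of 24 or more, 31.2% with 28 or more and 0.837% with scores of 20 to 27 only. With each run counted once it was 3.44%, and without chromosome 9, an alternative added after seeing the data, it was 5.15%. With windows of 100 kb and 1 Mb it was 7.91% and 9.18%, against 0 and 1.79% of shared peaks. The share in runs, 11.4%, was 23.4% with scores of 24 or more and 0.837% when only peaks of 20 to 27 were kept, against 0.477% of shared peaks. Without chromosome 9 it was 8.59%. The share within 10 kb of library 1, 12.7%, became 7.91% at 5 kb and 46.2% at 50 kb, by construction. The 92.4% of peaks with scores of 36 or more that were absent from library 1 did not move with the overlap rule, also added after seeing the data. None of these 61 had a library 1 peak within 500 bp, so only the 5 shared peaks could have changed. The alternatives for sequence were not run. No paired analysis was possible because the choice needs both lists, and for the same reason neither library could be left out. With no read depth and no input peaks, absence from library 1 does not show absence of binding, and a high score does not show STAT5A binding.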
